A study of Mus musculus with 4 samples.

Results

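The genes described are 6 factors of mRNA decay and T cell quiescence, found in the expression table by gene symbol: the zinc finger genes Zfp36, Zfp36l1 and Zfp36l2, the antiproliferative genes Btg1 and Btg2, and Zc3h12a. All 6 were among the 15367 genes of the table and among the 9805 genes tested. RNA came from CD8 T cells sorted from the livers of adult C57BL/6 mice fed an MCD diet for 4 weeks. There were 2 libraries from wild type mice and 2 from mice labelled perforin knockout; both groups received the diet, and no library from mice on another diet was analysed here. The labels do not say which knockout allele was used, or whether the libraries of a group came from separate or pooled animals, so any p measures only the spread between these libraries, which may be technical.

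ZFP36 proteins bind AU-rich elements in the 3′ ends of messages and bring in the CCR4-NOT deadenylase, which shortens the poly(A) tail and starts decay. BTG1 and BTG2 bind the CAF1 deadenylase subunits of the same complex and, in mouse T cells, help to keep resting cells quiescent. Regnase-1, the product of Zc3h12a, is an endonuclease that cuts stem-loops in messages of immune genes, and the protease MALT1 cleaves it after T cell receptor stimulation. Several of these genes are themselves rapidly transcribed after stimulation.

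The promoters of Btg2 and Zfp36 are shown because these were the most abundant of the 6 messages. Each is the 250 bases before the RefSeq start in GRCm38.p6, a later build than the one named for the deposited values, and 5 of the 6 genes had a promoter entry. Both strands were searched for the cyclic AMP response element TGACGTCA, the AP-1 site TGANTCA, the CArG box of serum response factor and the NF-kB site, and capitals mark a match. No matches of different motifs overlapped in these windows. The Zfp36 window lies on the minus strand at chr7:28379229-28379478, with 1 CArG box from 58 to 49 bases before the start. The Btg2 window lies on the minus strand at chr1:134079156-134079405, with 1 cyclic AMP response element from 166 to 159 bases before the start.
Zfp36: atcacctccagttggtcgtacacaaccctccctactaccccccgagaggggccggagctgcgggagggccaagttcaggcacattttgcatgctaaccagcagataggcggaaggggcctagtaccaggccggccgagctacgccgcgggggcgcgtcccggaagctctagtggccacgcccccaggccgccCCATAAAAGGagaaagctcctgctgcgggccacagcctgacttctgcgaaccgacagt
Btg2: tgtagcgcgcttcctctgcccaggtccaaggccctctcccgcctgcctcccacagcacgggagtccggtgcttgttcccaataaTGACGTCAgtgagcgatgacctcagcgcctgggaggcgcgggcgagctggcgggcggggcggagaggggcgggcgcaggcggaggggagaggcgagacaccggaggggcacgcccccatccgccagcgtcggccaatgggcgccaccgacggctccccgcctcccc

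Of 32851 mouse promoter windows of this length, 1.55% held the cyclic AMP response element and 1.47% the CArG box. An AP-1 site, found in 6.75% of windows, occurred once in the Zfp36l1 window. The NF-kB site, found in 3.90%, occurred in none of the 5 windows. These matches are descriptions of letters and not of binding.

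The messages of these decay factors can carry the element that ZFP36 proteins recognise. The heptamer TATTTAT (in DNA letters, overlapping copies counted) occurred 3 times each in the 3′ untranslated regions of Zfp36, Zfp36l1 and Zfp36l2, once in that of Btg2, and 0 times in those of Btg1 and Zc3h12a, in the longest coding transcripts of GENCODE. Among 3′ untranslated regions within 20% of the same length, at least 1 copy was held by 19.6% for Zfp36, by 38.5% for Zfp36l1, by 38.4% for Zfp36l2 and by 42.8% for Btg2. For the genes without a copy, the share was 60.7% for Btg1 and 20.9% for Zc3h12a. The first site of each is shown with 10 bases on either side and the heptamer in capitals.
Zfp36: gtgggcccttTATTTATgacgacttta
Zfp36l1: tatcaaaacgTATTTATtgccaaacta
Zfp36l2: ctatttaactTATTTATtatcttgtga
Btg2: aatgaagagcTATTTATacatgttttt

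Values are FPKM, which scale fragment counts to transcript length and library total and so allow levels of different genes to be compared. The smallest steps between values of long transcripts correspond to about 26500000 and 27300000 fragments for wild type and to 21700000 and 28400000 for the knockout-labelled libraries. These sizes are rough, because the step was searched within a fixed range. It rested on 20 and 21 genes in wild type and on 92 and 24 in the knockout-labelled libraries. At the length of the longest GENCODE transcript, such sizes give about 698 to 1544 fragments per library for Zc3h12a. For each of the other 5 they give at least about 10032. Prf1, the targeted gene, stood at 125 and 113 in wild type, against 95.4 and 98.7 in the knockout-labelled libraries, so the gene-level value did not show a loss that would check the labels. The knockout-labelled replicate 1 library differed most from the rest, with 12495 genes above 0 against 12010 to 12161. Its values also had the lowest sum, 334493 against 378364 to 392785, and the libraries were not rescaled for the main counts. CD8 T cell markers were present in all 4 libraries, with Cd8a at 272 to 289 and Cd3e at 319 to 472. Of 8 tested markers, 0 were higher and 2 lower in both knockout-labelled libraries, against 13.9% and 21.9% of all tested genes. The lower ones were Cd3d, at 170 and 199 in wild type against 128 and 159, and Cd3g, at 130 and 186 against 89.4 and 114.

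All 6 genes were detected in every library, and none differed between the groups by the test over all genes. Btg2 and Zfp36 stood among the most abundant messages, at ranks 35 to 51 and 38 to 53 of all genes in the 4 libraries. Zfp36l2, Btg1 and Zfp36l1 followed at ranks 107 to 240, 167 to 293 and 281 to 361. Zc3h12a was far lower, at ranks 3096 to 4345. The ranges of Btg2 and Zfp36 overlapped across the 4 libraries, as did those of Zfp36l2 and Btg1 and those of Btg1 and Zfp36l1. Overlapping ranges do not give the order within a library, so these neighbours were also compared library by library. Within a library, Btg1 exceeded Zfp36l1 in all 4, by 1.19-fold to 1.61-fold, while the ratio of Btg2 to Zfp36 ran from 0.835 to 1.25 and that of Zfp36l2 to Btg1 from 0.797 to 2.02. Zfp36 exceeded Zc3h12a by 37.0-fold to 78.1-fold within a library.

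**Figure D1:**
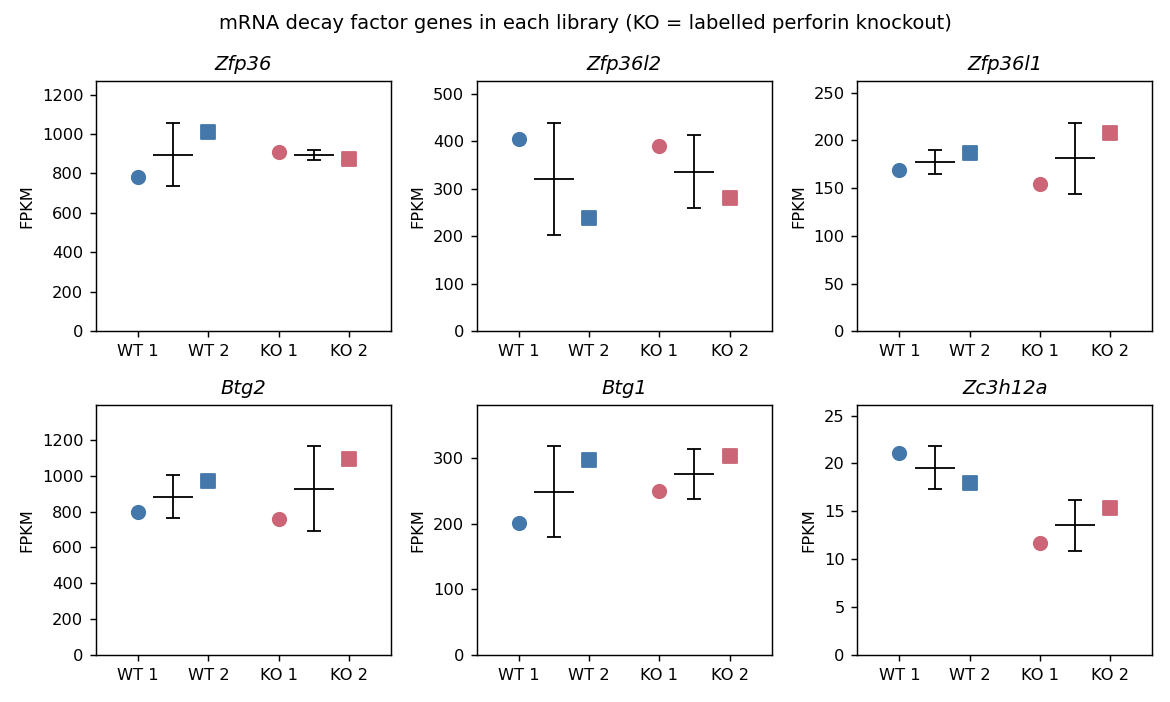
FPKM of the 6 genes in each library (WT, wild type; KO, labelled perforin knockout; circles, replicate 1; squares, replicate 2), with the group mean and SD (n = 2) as a bar between the points. The groups overlap for every gene except Zc3h12a, and for Zfp36l2, Zfp36l1, Btg2 and Btg1 the circles and squares separate.

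Zfp36, which encodes tristetraprolin, the founding member of the family, had 781 (replicate 1) and 1010 FPKM (replicate 2) in wild type, against 911 and 875 in the knockout-labelled libraries; values below keep this order. Both knockout-labelled libraries lay between the wild type values. The log2 fold change, on the scale of log2(FPKM + 1) and as labelled knockout minus wild type throughout, was 0.01 (SE 0.28, 95% interval -0.63 to 0.64, limma adjusted p = 0.997).

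Zfp36l2, a paralogue with roles in lymphocyte development, had 404 and 237 FPKM in wild type, against 390 and 281 in the knockout-labelled libraries. The replicate 1 library was the higher one in each group, and the groups overlapped. The gene had a log2 fold change of 0.10 (SE 0.32, 95% interval -0.64 to 0.84, limma adjusted p = 0.966), and the gap between replicates, 1.70-fold in wild type and 1.39-fold in the knockout-labelled libraries, was wider than the 1.05-fold ratio of group means.

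Zfp36l1, the third paralogue, had 169 and 186 FPKM in wild type, against 155 and 208 in the knockout-labelled libraries. The wild type values lay inside the range of the other group. Its log2 fold change was 0.02 (SE 0.26, 95% interval -0.57 to 0.61, limma adjusted p = 0.993).

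The order within the trio, Zfp36 above Zfp36l2 above Zfp36l1, was the same in the 4 libraries, while the proportions varied between libraries of the same group. Zfp36 made up 57.7% and 70.4% of the summed FPKM of the 3 paralogues in wild type, against 62.6% and 64.2% in the knockout-labelled libraries. Zfp36l2 made up 29.8% and 16.6% in wild type, against 26.8% and 20.6% in the knockout-labelled libraries. The sum itself was 1354 and 1434 in wild type, against 1456 and 1364 in the knockout-labelled libraries. The trio's summed level thus spanned a narrower range than that of Zfp36l2, whose coefficient of variation over the 4 libraries was 24.9%, against 10.6% for Zfp36 and 12.8% for Zfp36l1. The difference in mean share between the groups was -0.72 percentage points for Zfp36 and 0.52 for Zfp36l2, with an exact two-sided permutation p of 1 for each.

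**Figure D2:**
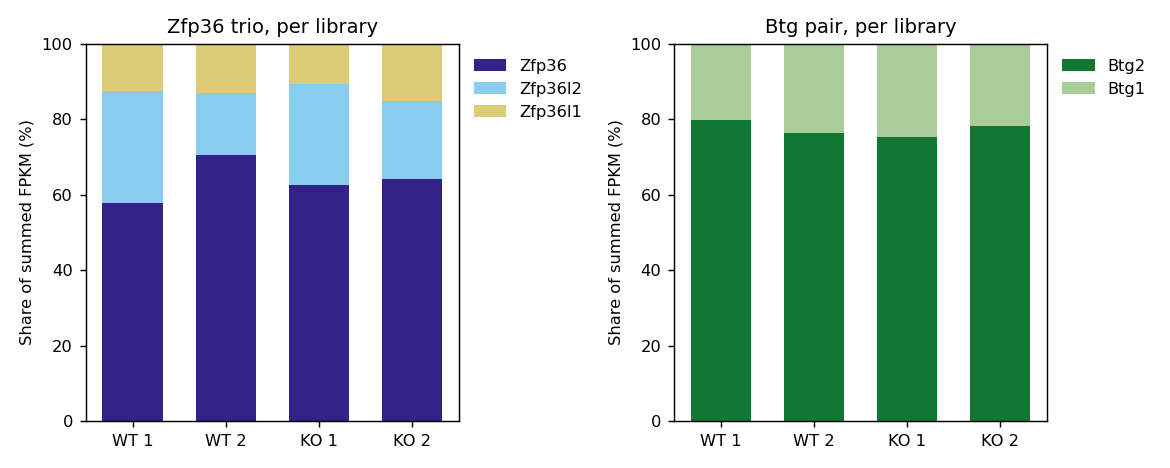
Share of each paralogue in the summed FPKM of the Zfp36 trio (left) and the Btg pair (right), in percent, for each library (WT, wild type; KO, labelled perforin knockout). Zfp36l2 takes 29.8% and 26.8% of the trio in the replicate 1 libraries and 16.6% and 20.6% in the replicate 2 libraries, while Btg2 takes 75.3% to 79.9% of the pair in all 4.

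Btg2, an early-response gene of the antiproliferative family, had 798 and 969 FPKM in wild type, against 760 and 1095 in the knockout-labelled libraries. Both wild type values lay within the range of the knockout-labelled libraries. The gene had a log2 fold change of 0.05 (SE 0.30, 95% interval -0.63 to 0.74, limma adjusted p = 0.978).

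Btg1, its closest paralogue, had 200 and 298 FPKM in wild type, against 249 and 303 in the knockout-labelled libraries. The groups overlapped, with the lowest value in wild type replicate 1. The gene had a log2 fold change of 0.17 (SE 0.28, 95% interval -0.48 to 0.82, limma adjusted p = 0.930). Processed copies of Btg1 and Zfp36l1 exist in the genome, and Zfp36, Zfp36l1 and Zfp36l2 overlap non-coding genes transcribed in the opposite direction, from which reads without strand cannot be told apart, so these values are uncertain to that extent.

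Btg2 exceeded Btg1 by 3.05-fold to 3.98-fold in the 4 libraries, and its share of the pair was 78.2% ± 2.42 for wild type against 76.8% ± 2.14 for the knockout label (SD, n = 2 each, exact two-sided permutation p = 0.667). The related genes Btg3, Tob1 and Tob2, whose products also bind the deadenylase, were lower, at 17.9 to 32.5, 26.3 to 35.9 and 53.2 to 61.3 FPKM. Btg1 and Btg2 together made up most of the summed level of these 5 genes, Btg2 with 67.5% to 72.8% and Btg1 with 18.3% to 22.1%.

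Zc3h12a, which encodes Regnase-1, had 21.1 and 17.9 FPKM in wild type, against 11.7 and 15.4 in the knockout-labelled libraries. It was the single gene of the 6 whose groups did not overlap, and both knockout-labelled libraries lay below both wild type libraries. Of all tested genes, 21.9% were lower in this way and 13.9% higher, so 1 of 6 is no more than the background. The ratio of means was 0.692 and the log2 fold change -0.51 (SE 0.29, 95% interval -1.16 to 0.15), which did not pass the test (limma adjusted p = 0.866). The exact permutation p was 0.333, the smallest that 2 against 2 libraries allow. Without the knockout-labelled replicate 1 library the log2 fold change was -0.32. Zc3h12d, a relative of Zc3h12a in the Regnase family, had 30.3 and 24.4 FPKM in wild type, against 16.6 and 25.0 in the knockout-labelled libraries, and exceeded Zc3h12a by 1.36-fold to 1.62-fold in each library. Zc3h12b and Zc3h12c stood at 0.00 to 0.42 and 0.07 to 0.74 FPKM.

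Neutrophil markers were lower in the knockout-labelled libraries, in both of them for 6 of 8 tested genes, against 21.9% of all tested genes. Their summed FPKM was 232 and 244 in wild type, against 104 and 146 in the knockout-labelled libraries, and Camp was at 0 in the knockout-labelled replicate 1 library. The median log2 fold change of macrophage and Kupffer cell genes was 0.81. Of 8 tested genes, 2 were higher in both knockout-labelled libraries and 1 lower, against 13.9% and 21.9% of all tested genes. The colony-stimulating factor receptor gene Csf1r had 17.1 FPKM in both wild type libraries against 38.2 and 24.3. The Kupffer cell gene Vsig4 was at 0 in both wild type libraries, against 3.99 and 0.178. Emr1, the lower one, had 1.19 and 1.65 against 0.615 and 1.16. C1qa, C1qb and C1qc were instead higher in both replicate 1 libraries. The summed FPKM of this list, of which the lysozyme gene Lyz2 made up most, was 2457 and 2556 against 1674 and 2453. In such bulk samples fewer cells of a type and less RNA per cell cannot be told apart, and the part of either marker list in the Zc3h12a values was not tested.

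**Figure D3:**
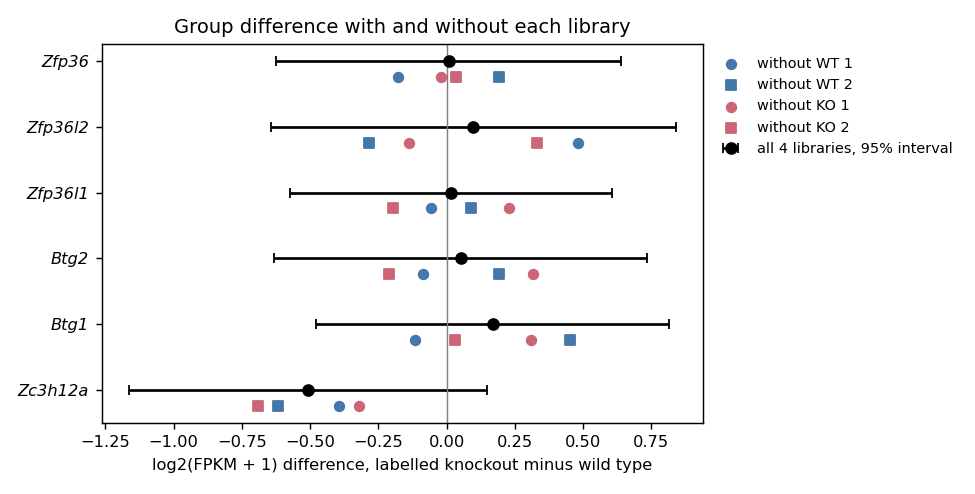
Log2 fold change of each gene (log2(FPKM + 1), labelled knockout minus wild type) with its 95% interval from limma (black), and the value with each library left out in turn (coloured). All 6 intervals include 0, and Zc3h12a alone keeps its sign with each library left out.

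By limma, 0 of the 6 genes passed an adjusted p of 0.05, against 0.00% of the 9805 tested genes higher and 0.00% lower. At an unadjusted p under 0.05 there were also 0 of 6, against 4.79% of all tested genes. For Zfp36, Zfp36l1, Zfp36l2, Btg1 and Btg2 the intervals ran from -0.64 at the lowest to 0.84 at the highest. Each included 0 and left room for a difference of either sign. For 5 of the 6 genes, all but Zc3h12a, the sign of the log2 fold change turned when 1 library was left out. That of Zfp36l2 went from -0.29 without wild type replicate 2 to 0.48 without wild type replicate 1.

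Replicate number separated more of the 6 genes than the group did. Zfp36l1, Btg1 and Btg2 were higher in both replicate 2 libraries than in both replicate 1 libraries, against 19.3% of all tested genes. Zfp36l2 was higher in both replicate 1 libraries, against 13.4%. Together 4 of 6 were separated by replicate number, against 32.7% of all tested genes, and 1 of 6 by group, against 35.9%. The ratio of the replicate 2 to the replicate 1 library was 1.21 in wild type and 1.44 in the knockout-labelled libraries for Btg2, and 1.48 and 1.21 for Btg1. The labels do not say that the number marks a batch, day or animal.

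Marker and stimulus genes differed along the same division. All 9 tested liver endothelial markers were higher in both replicate 1 libraries, as Zfp36l2 was, against 13.4% of all tested genes. With the untested Cdh5 added, the 10 markers summed to 156 and 35.6 FPKM in the first and second wild type library. In the knockout-labelled libraries they summed to 319 and 76.0, and none was at 0 in any library. Clec4g, a sinusoidal endothelial lectin gene, stood at 90.2, 13.6, 121 and 38.6 in the same order. Of 2 tested dendritic cell markers, 2 were also higher in both replicate 1 libraries, against 13.4% of all tested genes. The part of either marker list in the Zfp36l2 values was not tested. Immediate-early genes are transcribed within minutes of a stimulus. Of 23 tested, 13 were higher in both replicate 2 libraries, as Zfp36l1, Btg1 and Btg2 were, against 19.3% of all tested genes. In both replicate 1 libraries 1 was higher, against 13.4%. Junb had 2084 and 2905 FPKM in wild type, against 1766 and 2659 in the knockout-labelled libraries. The part of stimulation during cell preparation was not tested. B cell markers were likewise higher in both replicate 2 libraries for 4 of 5 tested genes, against 19.3% of all tested genes. The summed FPKM of all 6 B cell markers, with the untested Pax5, was 40.1 and 50.4 in wild type, against 25.0 and 61.0 in the knockout-labelled libraries. Pax5, which defines B cells, was at 0 in 3 of the 4 libraries, and the part of these markers in the values of the 3 genes was not tested.

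**Figure D4:**
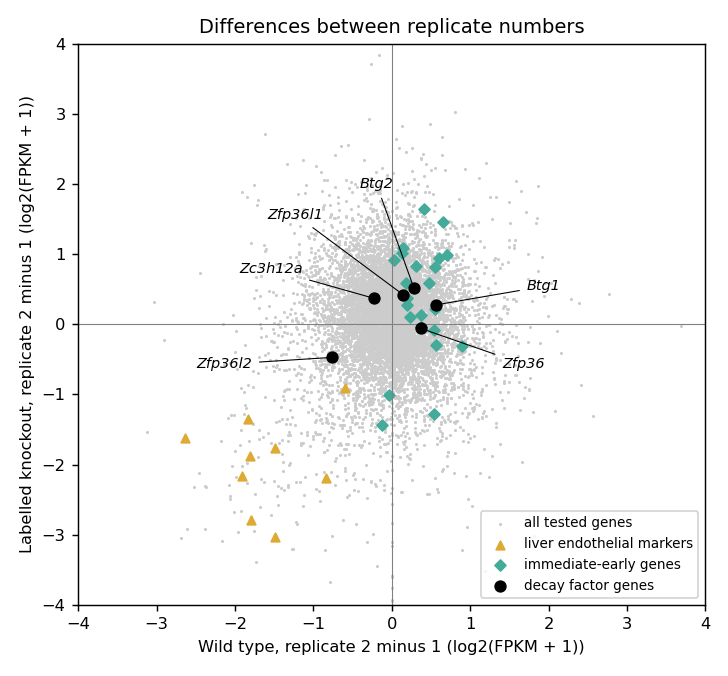
Difference between replicate 2 and replicate 1 on the log2(FPKM + 1) scale in wild type (x axis) and in the knockout-labelled libraries (y axis) for all tested genes (grey), the 6 decay factor genes (black), immediate-early genes (diamonds) and liver endothelial markers (triangles). Zfp36l2 lies in the lower left with the 9 endothelial markers, Zfp36l1, Btg1 and Btg2 lie in the upper right, and 3 genes fall outside the axes.

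Profiles over the 4 libraries were compared by the root mean square difference of log2(FPKM + 1) after centring each gene on its mean, a description over 4 points. Among the 6, Zfp36l1 and Btg2 were the most alike (0.06) and Zfp36l2 and Btg1 the least (0.54). Among the 4828 genes averaging 10 FPKM or more, the nearest to Zfp36 were Golph3 and Phyh, to Zfp36l1 Rab18 and Naa50, to Btg2 Prpf3 and Stard7, to Btg1 Ptpn6 and H2afv, to Zc3h12a Cog2 and Nudt14, and to Zfp36l2 Zfp637 and Ints7. Such profiles are common at 4 points. Within a difference of 0.1 lay 203 genes for Zfp36, 330 for Zfp36l1, 173 for Btg2, 170 for Zc3h12a and 66 for Btg1, but 15 for Zfp36l2.

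The machinery that these factors recruit was described by gene lists, with a median log2 fold change of -0.08 over all tested genes for comparison. Over all lists, 0 genes passed limma's adjusted p. Counts of genes lower or higher in both knockout-labelled libraries are read against 21.9% and 13.9% of all tested genes. With 1 library left out, fewer values need to separate, and the shares of all tested genes lower and higher were 36.3% and 26.1% without wild type replicate 1, 37.6% and 26.6% without wild type replicate 2, 34.2% and 31.9% without the knockout-labelled replicate 1 library, and 48.9% and 30.1% without the knockout-labelled replicate 2 library. In the deadenylation list, 8 of 19 genes were lower and 3 higher in both knockout-labelled libraries (median -0.07), against 21.9% and 13.9%. With any 1 library left out, 10 were lower and 4 to 6 higher, with medians from -0.18 to -0.08. The lower ones included the poly(A) ribonuclease gene Parn, at 21.8 and 25.5 FPKM against 14.4 and 17.1 (log2 fold change -0.56), Pan2 (-0.74) and the CCR4-NOT subunit gene Rqcd1, now Cnot9 (-0.44). Cnot7 and Cnot8, which encode the CAF1 subunits that BTG proteins bind, had log2 fold changes of -0.48 and 0.01 and were added after their values were seen, as were Btg3, Tob1, Tob2 and Junb.

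In the list of the exosome, which degrades messages from the 3′ end, 6 of 15 genes were lower and 0 higher in both knockout-labelled libraries, against 21.9% and 13.9%, with a median of -0.39. Exosc9 had 41.4 and 39.4 FPKM against 27.6 and 19.4, Exosc8 17.8 and 21.6 against 6.76 and 13.7, and Exosc7 a log2 fold change of -0.64. Without the knockout-labelled replicate 1 library the list's median was 0.01, with 6 of 15 lower and 5 higher. Without the knockout-labelled replicate 2 library it was -0.57, with 12 lower and 1 higher. In the list of decapping and decay from the 5′ end, 5 of 16 were lower and 1 higher (median -0.17), against 21.9% and 13.9%. Without wild type replicate 1, 9 were lower and 2 higher. Leaving out wild type replicate 2 gave 5 lower and 4 higher, with a median of 0.00. Leaving out the knockout-labelled replicate 1 library gave 8 lower and 3 higher, and leaving out the replicate 2 library of that label 8 and 5. These counts are read against the shares of all tested genes given above for each left-out library. Lsm4, part of a ring that binds deadenylated messages, had 127 and 152 FPKM against 69.2 and 98.7. Lsm7, a low gene at 3.85 and 3.17 FPKM against 0 and 2.73, had a log2 fold change of -1.22. For Lsm5 it was 0.64, but the groups overlapped, at 3.52 and 5.98 FPKM against 10.4 and 5.74.

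Other RNA-binding proteins and regulators went both ways, and their counts are read against the same 21.9% lower and 13.9% higher. Of 8 genes for other AU-rich element binding and 3′ end binding proteins, 2 were lower and 1 higher (median 0.03, and from -0.06 to 0.01 with 1 library left out), with Pum2 at -0.83, Khsrp at 0.13 and Elavl1, which encodes the stabilising protein HuR, at 0.43. Among Roquin genes, other Regnase genes and regulators of Regnase-1, 0 of 9 were lower and 1 higher (median -0.13). Without wild type replicate 1, 2 were lower and 4 higher (median 0.10), against 36.3% and 26.1% of all tested genes. Without the knockout-labelled replicate 2 library 4 were lower and 2 higher (-0.14), against 48.9% and 30.1%. Arid5a, whose product protects Regnase-1 targets, had a log2 fold change of -0.44 and Zc3h12d one of -0.40. The groups overlapped for both, with Arid5a at 132 and 143 FPKM against 74.5 and 138. In the list of the p38 and MK2 kinases that phosphorylate tristetraprolin, with phosphatase and 14-3-3 genes, 3 of 15 were lower and 1 higher (median 0.03, and from -0.03 to 0.06 with 1 library left out). The counts of this list depended on scaling, with 3 lower and 3 higher after upper-quartile or median scaling. After quantile normalization 2 were lower and 4 higher. Counts of other lists moved as well. With each of the 3 scalings, 6 of 19 deadenylation genes were lower and 3 higher. Of the 8 other binding protein genes, 1 was then lower and 1 or 2 higher. Of the 9 Roquin and Regnase list genes, 0 were lower and 2 or 3 higher. The shares of all tested genes moved too. They were 18.6% lower and 17.4% higher after upper-quartile scaling, 20.1% and 15.8% after median scaling, and 19.0% and 16.8% after quantile normalization. The PP2A catalytic genes went opposite ways, with Ppp2ca at 21.0 and 14.7 FPKM against 190 and 35.9 and Ppp2cb at 19.7 and 12.7 against 3.23 and 8.40, and Ywhag had a log2 fold change of 0.62.

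**Figure D5:**
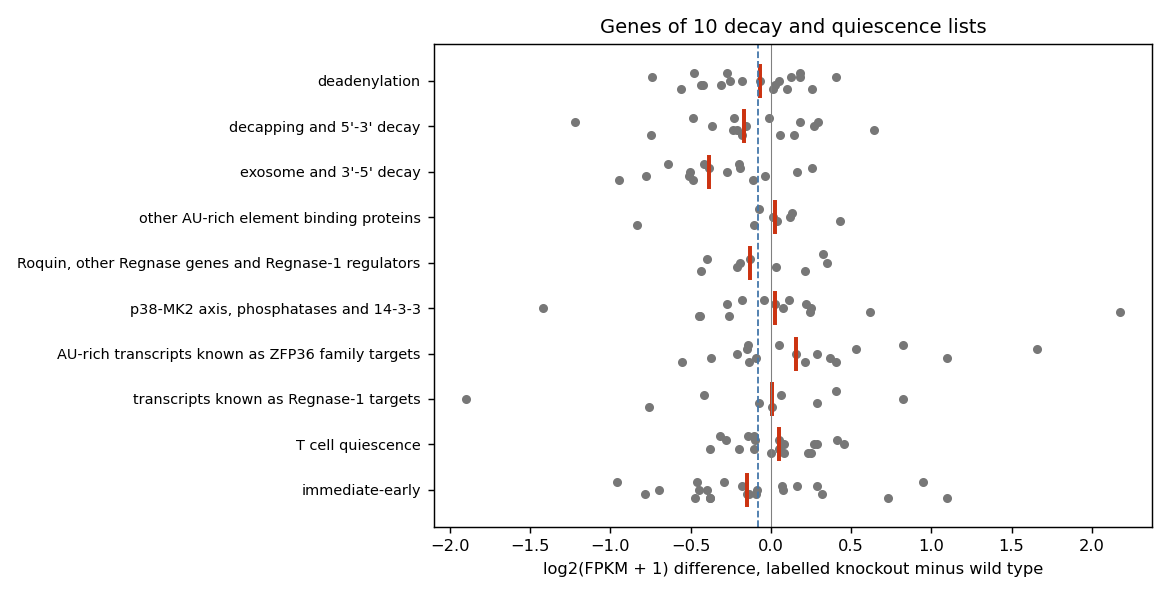
Log2 fold change (log2(FPKM + 1), labelled knockout minus wild type) of every tested gene in the 10 lists (grey points), with each list's median (red) and the median of all tested genes (dashed). The exosome list has the lowest median, -0.39, and the ZFP36 target list the highest, 0.15.

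Transcripts known as targets went both ways, and the balance depended on which libraries were kept. Of 17 tested AU-rich transcripts known as ZFP36 family targets, 4 were higher and 3 lower in both knockout-labelled libraries (median 0.15), against 13.9% and 21.9% of all tested genes. Without wild type replicate 2, 9 were higher and 4 lower, against 26.6% and 37.6% of all tested genes. Without wild type replicate 1, 5 were higher and 6 lower, against 26.1% and 36.3%. Without the knockout-labelled replicate 2 library, 7 were higher and 6 lower, against 30.1% and 48.9%, with a median of -0.09. The cyclooxygenase gene Ptgs2 had 8.54 and 6.54 FPKM against 14.9 and 13.2 (log2 fold change 0.82, limma adjusted p = 0.866). Ier3 had a log2 fold change of 1.10, at 15.4 and 14.1 FPKM against 54.4 and 19.5, and Il10 one of 1.66. Of 9 tested transcripts known as Regnase-1 targets, 3 were lower and 1 higher (median 0.01), against the same 21.9% and 13.9%. The higher one was Ptgs2, which is also counted in the ZFP36 target list. Without the knockout-labelled replicate 1 library, 3 were lower and 5 higher (median 0.24), against 34.2% and 31.9% of all tested genes. Without the replicate 2 library of that label 6 were lower and 1 higher (-0.39), against 48.9% and 30.1%. The interleukin 12 subunit gene Il12b had 4.46 and 2.06 FPKM against 0 and 0.202, the inhibitory receptor gene Ctla4 56.4 and 64.5 against 28.7 and 42.9, and Il2ra a log2 fold change of -0.42. Il12b is made by myeloid cells, whose markers went both ways, with the neutrophil list lower and the median of the macrophage and Kupffer cell list higher. Their part in the Il12b values was not tested.

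Of 19 T cell quiescence genes, 5 were higher and 1 lower in both knockout-labelled libraries (median 0.05), against 13.9% and 21.9% of all tested genes. With wild type replicate 2 left out, 11 were higher and 4 lower (median 0.16), against 26.6% and 37.6% of all tested genes. Without wild type replicate 1, 5 were higher and 7 lower (-0.03), against 26.1% and 36.3%. Satb1 had 48.8 and 50.8 FPKM against 73.1 and 64.5, the transcription factor gene Foxo1 a log2 fold change of 0.41, and the homing receptor gene Ccr7, the lower one, -0.38. Of 23 immediate-early genes, 4 were higher and 3 lower (median -0.15), against the same 13.9% and 21.9%. With wild type replicate 1 left out, 16 were lower and 4 higher (-0.28), against 36.3% and 26.1% of all tested genes. Without the knockout-labelled replicate 2 library, 14 were lower and 5 higher (-0.33), against 48.9% and 30.1%. Without wild type replicate 2, 3 were lower and 8 higher (0.01), against 37.6% and 26.6%. Atf3, Jund and Egr1 had log2 fold changes of 0.73, 0.95 and -0.96. Jund stood at 30.4 and 44.6 FPKM against 113 and 45.8, and Egr1 at 176 and 288 against 81.4 and 164.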

How the data were processed

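The authors deposited 1 table with 1 value per gene symbol and library. Its header and the labels name no unit, and the deposited values were read as FPKM because they are not whole numbers, have different column totals and are lowest for long transcripts. Bowtie 0.12.2 and build mm8 are named, with no role, per the submitters' processing notes. For the quantification tool and the annotation, nothing is given in the sources used here. The kit named in the labels' protocols does not mark strand.

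The scale of analysis was log2(FPKM + 1), with no rescaling between libraries. Genes with a mean of at least 1 (9805) were fitted with limma 3.58.1 in R 4.3.3, with an intensity trend, two-sided, and Benjamini-Hochberg adjustment over all of them. The procedure was tested on simulated data. Library size was estimated from the most common smallest value times length among transcripts over 3 kb, searched within a fixed range. It is approximate and was used in no test. Lists were described by counts and medians, and some genes are in more than 1 list. From each list, the 3 genes with the smallest p not already named were given, and likeness took the 2 nearest genes. A gene that this rule takes is not reported here. The members and lists were chosen with earlier results of these data known. Groups came from sample titles. Sequences are from RefSeq (GRCm38.p6) and GENCODE. Figures used matplotlib 3.10.9.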

Additional observations from a re-analysis of the deposited data

How the results depend on the processing

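The 15 other settings were the replicate block, each library left out, no filter or a mean of at least 5, 3 scalings, pseudocounts of 0.1 and 5, no trend, robust moderation and sample weights. None of the 6 genes passed in any of them. When a library was dropped, the spread of its group was taken from the other one, and the log2 fold change ran from -0.18 to 0.19 for Zfp36, from -0.20 to 0.23 for Zfp36l1, from -0.29 to 0.48 for Zfp36l2, from -0.12 to 0.45 for Btg1, from -0.21 to 0.32 for Btg2 and from -0.69 to -0.32 for Zc3h12a. The cause of the sign changes was not tested. Under the 11 settings that kept all libraries, no sign changed. The number of genes called, 0 higher and 0 lower, ran from 0 to 1 in each direction with a library left out and stayed 0 otherwise. Differences in share ran from -7.09 to 5.66 percentage points for Zfp36, from -2.10 to 2.50 for Zfp36l1, from -6.13 to 7.17 for Zfp36l2 and from -0.31 to 3.10 for Btg1.

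With the replicate block, the log2 fold changes were the same, Zc3h12a at -0.51 had a limma adjusted p of 0.870, and 0 genes were called. Deviations of same-numbered libraries from their group means correlated at 0.07 across genes, and the labels do not say that the numbers pair the samples. The 2 libraries a group limit the precision of every difference.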
